A study of Caenorhabditis elegans with 8 samples.

Results

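Endo-cleaved fragments of 130 to 230 nt, a range that starts near the length of nucleosome core DNA, were taken from 2 paired-end libraries of C. elegans oocyte chromatin. A fragment was kept when the distance between its deposited ends, with every deposited copy counted, lay in this range. The 80 to 230 nt library gave 3261126 of its 15509078 fragments (21%), and the 130 to 430 nt library gave 13481348 of 15331431 (87.9%). Counted once each, these were 3119636 and 11898792 distinct fragments, 15018428 in all, set against 106748079 distinct entries in the 8 libraries of the series.

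All 8 libraries came from oocytes of fer-1(b232) worms, a temperature-sensitive strain whose oocytes are ovulated but not fertilized. In 7 libraries the DNA had been cut by a nuclease of the oocytes themselves, with no enzyme added, and in the remaining library it was core DNA released by micrococcal nuclease (MNase). Each condition is 1 library, so no value has an error between oocyte preparations and no test between libraries was possible. Whether the 2 paired-end libraries were made from the same oocytes is not given in the sources used here. Beside them stand 2 single-end libraries, endo-cleaved DNA of 140 to 240 nt with 32660817 tags and MNase core DNA of about 150 nt with 7892011 tags.

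In chromatin the DNA is wound around a histone octamer to form the nucleosome core, and linker DNA joins one core to the next. MNase prefers linker DNA and trims it back to the core. A nuclease that cuts DNA lying on the histone surface reaches each strand once per helical turn, so its cuts fall in steps of about the helical repeat, and fragments longer than the core carry some linker. The lists name no genome build, so positions are given as the authors listed them, without gene annotation or sequence.

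The kept fragments sat at opposite ends of the 2 size selections. In the 80 to 230 nt library 78.9% of all fragments were shorter than 130 nt and 0.0390% longer than 230 nt, whereas in the 130 to 430 nt library 4.04% were shorter and 8.03% longer. The median kept size was 149 nt in the first library, with a range from the 5th to the 95th percentile of 131 to 180 nt, and 155 nt in the second, with a range of 134 to 208 nt. Repeat copies of a fragment made up 4.34% of the kept fragments in the first library and 11.7% in the second. Intervals below are exact 95% Clopper-Pearson intervals, which cover counting error only, because PCR copies are not independent molecules.

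In the 80 to 230 nt library the counts by size had maxima at 132, 141 and 155 nt. A maximum is a size whose count is the highest within 3 nt on either side, and its height is the count over the mean of the neighbouring troughs. The height was 1.43 at 132 nt (103668 fragments), 1.38 at 141 nt (91190 fragments) and 1.18 at 155 nt (67040 fragments; interval 1.17 to 1.19). All 6 nuclear chromosomes had each maximum within 2 nt, and the last lay between 154 and 157 nt on them. No raw maximum stood near 178, 188 or 199 nt, where the counts fell steeply to 24489, 9900 and 2138 fragments. Further maxima at 215, 222 and 230 nt held 116, 86 and 72 fragments.

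In the 130 to 430 nt library the maxima lay at 134, 145, 178, 188, 199 and 219 nt. The most frequent size was 145 nt, with 336713 fragments and a height of 1.42, and it lay at 145 or 146 nt on every chromosome. The longer maxima held 124456 fragments at 178 nt, 98909 at 188 nt and 67281 at 199 nt, with heights of 1.29, 1.38 and 1.24. All 6 chromosomes showed these 3 maxima, and 5 of 6 showed the small one at 219 nt (27283 fragments, height 1.12). The first maximum, at 134 nt with 218388 fragments, lies beside the lower limit of the size selection, and its height of 2.02 rests on a left trough of 22426 fragments at 127 nt. It was no longer a maximum when the highest count within 4 nt was asked for, and with each fragment counted once a further maximum appeared at 167 nt. No raw maximum stood near 155 nt, where 258803 fragments lay on a shoulder.

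The differences between the 2 sets of maxima shrank once the slope of each distribution was divided out. Divided by a Gaussian smooth whose SD was 6 nt, the counts of the 80 to 230 nt library had maxima at 132, 144, 157, 168, 178, 188 and 198 nt. In the other library the maxima were at 133, 141, 145, 157, 168, 178, 189, 200, 209 and 220 nt. The first library held too few fragments for comparison at the last 2 sizes. Both libraries thus had a maximum at 157, 168 and 178 nt, with counts of 1.08, 1.07 and 1.07 times the smooth in the first library and 1.05, 1.04 and 1.10 times in the second. Near the top, the counts over the smooth had maxima at both 141 and 145 nt in the second library and only at 144 nt in the first. The raw count of the first library at 144 nt (88613) was lower than at its raw maximum of 141 nt.

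**Figure D1:**
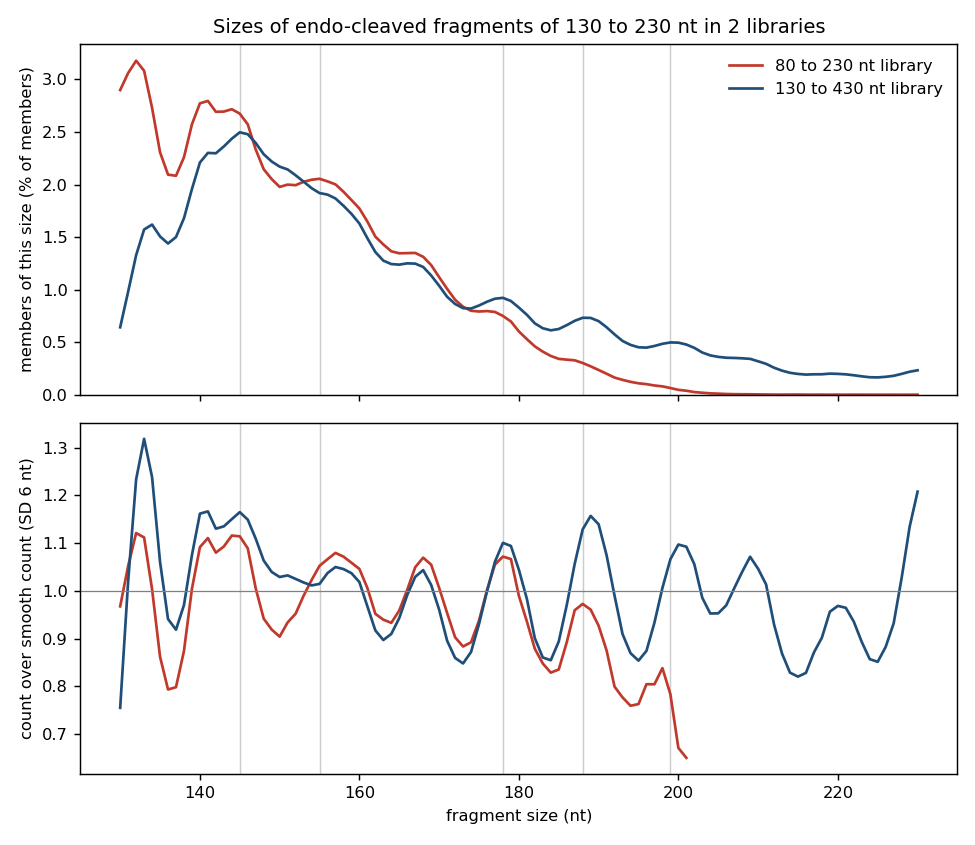
The upper panel plots the percent of kept fragments at each size in nt for the 80 to 230 nt library (red) and the 130 to 430 nt library (blue), and the lower panel the counts divided by a Gaussian smooth with an SD of 6 nt, with grey lines at 145, 155, 178, 188 and 199 nt. The red line is drawn in the lower panel only for sizes with at least 1000 fragments; in the upper panel the lines are farthest apart at 130 to 134 nt and part again beyond 180 nt, and in the lower panel both lines peak at 157, 168 and 178 nt.

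The shares of the size classes parted with length. Fragments of 143 to 147 nt were 13% of the kept fragments in the 80 to 230 nt library, against 12.2% in the 130 to 430 nt library, and those of 153 to 157 nt were 10.2% and 9.69%. At 176 to 180 nt the shares were 3.64% and 4.45%, at 186 to 190 nt 1.48% and 3.54%, and at 197 to 201 nt 0.324% (interval 0.318 to 0.331) and 2.43% (interval 2.42 to 2.44). The share in the second library over that in the first was 0.222 at 130 nt, 0.934 at 145 nt, 2.96 at 190 nt and 67.3 at 210 nt. Size selection differed between the libraries, and its part in these shares cannot be told apart from a difference in cutting.

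A sinusoid fitted to the counts of each library over its own smooth repeated every 11.18 nt for the 130 to 430 nt fragments (11.08 to 11.23 over chromosomes) and an amplitude of 6.76% (6.70 to 7.0). In the 80 to 230 nt library the best period was the longest one searched, on every chromosome, so no period is claimed for it. With all sizes given equal weight the periods were 11.19 nt in the 80 to 230 nt library, against 10.83 nt in the 130 to 430 nt library.

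Fragments with both ends identical recurred in the 2 libraries far more often than fragments displaced by a few nt. Of the distinct kept fragments, 68990 were present in both, which is 2.21% of those in the 80 to 230 nt library (interval 2.20 to 2.23), against 0.580% of those in the 130 to 430 nt library (interval 0.576 to 0.584). With the second library thinned to the depth of the first, each share was 0.578%. When one library was moved along the chromosomes by 1 to 60 nt in either direction, the mean over the 120 offsets was 7902 matches, with a range of 6078 to 11021. The exact match was therefore 8.73 times this mean, from 8.36 on chromosome V to 8.99 on chromosome I. The matches at other offsets rose and fell about every 10 nt, with means over both directions of 6177 at 5 nt, 10784 at 10 nt and 10249 at 20 nt. At 1 nt the mean was 11019, close to the level at 10 nt.

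**Figure D2:**
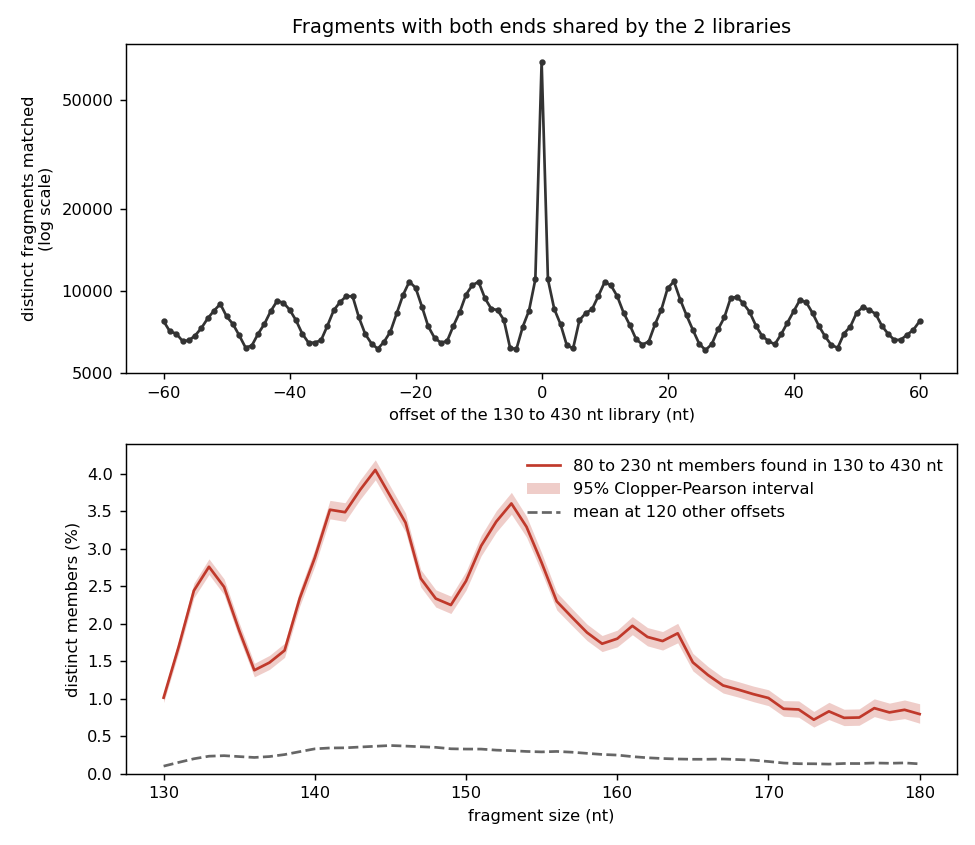
The upper panel plots, on a log scale, the number of distinct fragments matched when the 130 to 430 nt library is moved by the offset on the x axis in nt, and the lower panel the percent of distinct 80 to 230 nt library fragments of each size in nt found in the other library (red, with its 95% interval shaded) beside the mean at 120 other offsets (dashed). The 68990 exact matches at offset 0 stand above every other offset, and the share rises and falls with size, with maxima at 133, 144 and 153 nt.

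The share of fragments that recurred depended on their size. It was 2.76% at 133 nt (2649 of 95961), 1.38% at 136 nt (905 of 65542), 4.05% at 144 nt (3433 of 84718), 2.25% at 149 nt, 3.60% at 153 nt (2277 of 63166) and 1.73% at 159 nt. Neighbouring maxima and minima in this series differed by more than their intervals, for example 3.92 to 4.19% at 144 nt and 2.14 to 2.37% at 149 nt. The number of fragments of equal size in the other library also varies with size, and its part in these shares was not tested. The ratio to the other offsets, which shares that number, had its maxima and minima at nearby sizes. This ratio was 12.2 at 132 nt, 6.34 at 136 nt, 11 at 144 nt, 6.62 at 148 nt, 11.7 at 153 nt and 6.73 at 159 nt.

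Longer fragments recurred less often as a share of the 130 to 430 nt library, from 0.934% at 140 to 149 nt to 0.0951% at 180 to 189 nt and 0.0158% at 210 to 230 nt. As a share of the 80 to 230 nt library, which held few fragments at those lengths, the course was different. From 180 to 189 nt, 0.649% of the distinct fragments of the 80 to 230 nt library were shared (801 of 123484), 5.80 times the level at other offsets. From 210 to 230 nt, 5.28% were shared (85 of 1609; interval 4.24 to 6.49), although this library held few fragments of such lengths. Windows of 1 kb with over 5 times the median held 2.24% of those 1609 fragments and 8 of the 85 that were shared, and without them the share was 4.90% (77 of 1573; interval 3.88 to 6.08). At 200 to 209 nt the share was 1.54% with these windows and 1.06% without them.

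Shared fragments carried more copies than fragments found in 1 library. In the 80 to 230 nt library 6.58% of the shared fragments had 2 or more copies (interval 6.40 to 6.77), against 4.26% of the others. In the 130 to 430 nt library these shares were 19.0% and 11.8%. Of the 68990 shared fragments 52651 had 1 copy in each library and 1298 had 2 or more in both. The 5 shared fragments with the most copies, ranked by the lower of their copy numbers in the 2 libraries and chosen after their values were seen, all lay within 1 kb of chromosome V. The first of them, chromosome V from 17118146 to 17118287, is 142 nt long and had 36 copies in the 80 to 230 nt library, against 104 in the 130 to 430 nt library. The second shares its left end, is 1 nt shorter and had 29 and 113 copies.

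Single ends also recurred at the same nucleotide across libraries. The coincidence number, the sum over pairs of ends of the product of their counts, was 3649410 for ends of the 2 libraries on the same strand at distance 0. This is 2.91 times the mean at distances of 1 to 50 nt, with 2.60 on chromosome X and 3.41 on chromosome V. Left and right ends gave 2.94 and 2.87. The next highest distance was 1 nt, with the end of the 130 to 430 nt fragment inside the other, at 1.31 times the mean. Against the 5′ ends of the single-end 140 to 240 nt library the ratio at distance 0 was 2.48 for the 80 to 230 nt fragments (2.35 to 2.59 over chromosomes) and 2.40 for the 130 to 430 nt fragments (2.37 to 2.45).

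MNase ends were not concentrated at these positions. Against MNase-generated nucleosome core DNA the ratio at distance 0 was 0.995 for the 80 to 230 nt library (0.983 to 1.03 over chromosomes) and 0.962 for the 130 to 430 nt library (0.951 to 0.986). The highest ratio within 50 nt lay at 4 nt outside the end of the fragment in both, with 1.29 and 1.27. The 3 endo-cleaved libraries thus shared cut positions at 2.40 to 2.91 times the local level. With all sizes pooled, both paired-end libraries had MNase ends at their own cut positions at about the local level.

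Ends of the 2 libraries on the same strand lay at distances in steps of about 10 nt. The coincidence number had maxima at 10 nt and then at 21, 31, 41 and 51 nt, and it peaked again at 62, 72, 83, 93, 103, 114 and 124 nt, with heights over the neighbouring troughs of 1.31 at 10 nt, 1.32 at 21 nt and 1.17 at 124 nt. From 1 to 100 nt the periodic share, the amplitude of the best sinusoid divided by the mean, was 9.28% at a period of 10.27 nt, beside at most 2.01% for periods far from the helical turn. Within the 80 to 230 nt library it was 9.76% and within the 130 to 430 nt library 9.01%. With MNase ends in place of the other library the share was 2.10% for the 80 to 230 nt library and 2.34% for the 130 to 430 nt library.

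**Figure D3:**
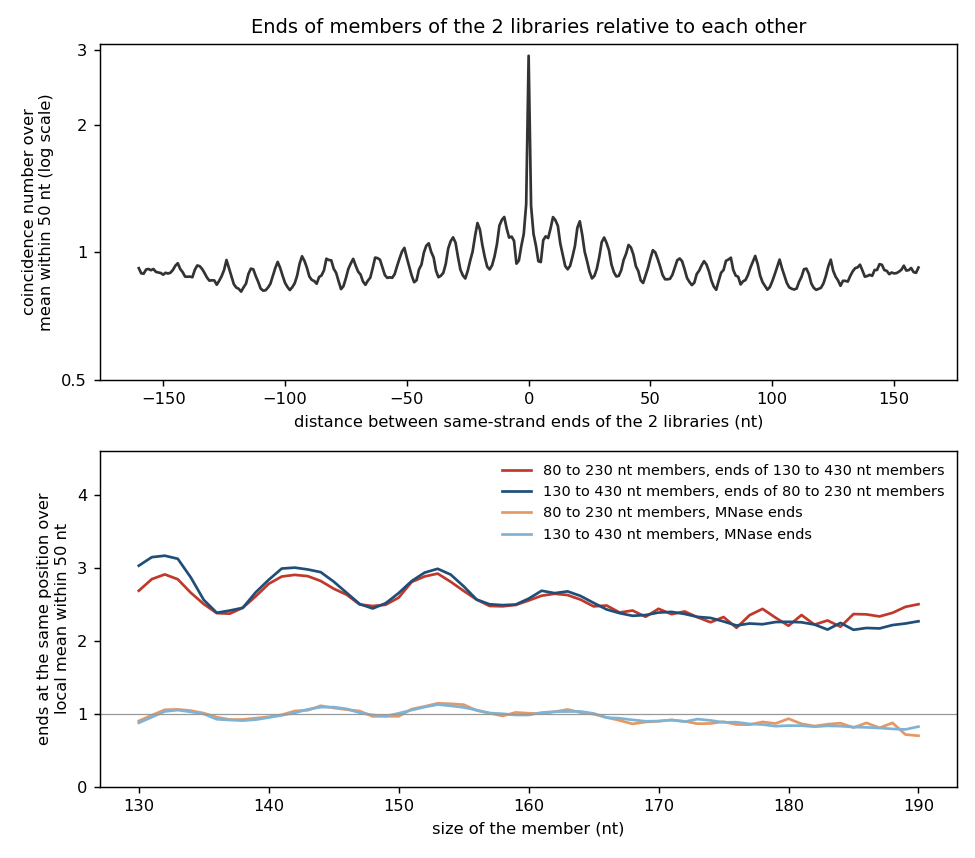
The upper panel plots the coincidence number of same-strand ends of the 2 libraries over its mean within 50 nt, on a log scale, against the distance in nt, and the lower panel the ratio of ends found at the same position over the local mean within 50 nt, against the size of the fragment in nt, for ends of the other paired-end library (dark lines) and of the MNase library (pale lines). The peak at distance 0 reaches 2.91, side maxima recur about every 10 nt, and the dark lines have maxima near 132, 142 and 153 nt in both directions.

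The periodic share fell with distance, and beyond 200 nt a part of it came from 1 window. It was 3.16% from 101 to 200 nt, 1.36% from 201 to 300 nt, 0.427% from 301 to 400 nt and 0.362% from 401 to 500 nt. The best periods in these ranges were 10.01, 10.16, 9.82 and 10.27 nt. From 301 to 400 nt the period lay beside the lower search limit of 9.8 nt, and at that limit on chromosomes I, II and X. No period is claimed for that range. Chromosome V gave 10.5% from 1 to 100 nt and 2.37% from 201 to 300 nt, the highest of the 6, and chromosome X gave 7.59% and 0.755%. Without the 1-kb window with the most kept fragments, which lies on chromosome V, the values of that chromosome were 8.08% and 0.886%, and 4 other chromosomes were then higher than chromosome V in both ranges. Genome-wide the shares without this window were 8.59%, 2.75%, 0.988%, 0.228% and 0.234% for the 5 ranges in order. The ratio at distance 0 on chromosome V fell to 3.02 without it and to 2.69 without all 15 windows over 5 times the median.

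Right ends of one library facing left ends of the other had a preferred gap. Among gaps within 40 nt the number of such pairs was highest at 4 nt, at 1.32 times the median, and 4 nt was the highest gap of 1 to 6 nt on all 6 chromosomes (1.27 to 1.40). At a gap of 0 nt, where 2 fragments would abut, the ratio was 0.796. Further maxima lay at 14, 24 and 34 nt, with ratios of 1.17, 1.26 and 1.08, and, for ends that overlap, at -1, -8 and -17 nt, with 1.21, 1.20 and 1.24. Ends were blunted before linkers were ligated. The paper reports that blunting shortened the fragments by a few nt and reads this as single-stranded overhangs that were trimmed away.

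Distances from a left end of one library to a right end of the other, which belong to different molecules, had maxima at 132, 142, 153, 161, 169, 178, 190, 200, 210, 222 and 228 nt. Their periodic share from 130 to 230 nt was 4.07% at 9.93 nt (3.91 to 4.33 over chromosomes), beside 2.00% for other periods. True fragments of the 130 to 430 nt library peaked at 145 nt, between the maxima at 142 and 153 nt of these spans, and both profiles had a maximum at 178 nt.

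Pairs of fragments with 1 end in common tended to have the same size. Among 1844709 pairs with a common left end across the libraries, 124903 (6.77%) were of equal size, 3.53 times the number that the 2 size distributions give. The same 124903 pairs were 6.92% of the 1804701 pairs with a common right end, at a ratio of 3.71. With both ends pooled the ratio was 3.62 (3.28 on chromosome IV to 4.27 on chromosome I), and 3.11 with each fragment counted once. When the second end differed, the ratio was highest at a difference of 1 nt. With the 130 to 430 nt fragment 1 nt longer it was 1.32 for common left and 1.27 for common right ends. With it 1 nt shorter the values were 1.34 and 1.23. Further out, the pooled ratio had local maxima at steps of about 10 nt. They lay where the 130 to 430 nt fragment was 10, 21 and 31 nt longer, with 1.12, 1.12 and 1.03, and where it was 12 and 21 nt shorter, with 1.10 and 1.03. The value at 12 nt shorter came from common right ends (1.23), against 0.986 for common left ends. With each fragment counted once, these values were 1.03 and 1.06, so the difference between the ends was not kept. At 10 nt shorter the values counted once were higher, at 1.08 for common right and 1.08 for common left ends. Around 145 nt the equal-size ratio was 3.55, around 155 nt 3.83 and around 178 nt 3.36. It was 5.65 around 188 nt and 12.9 around 199 nt, from 211 and 77 pairs.

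How precisely the ends of a fragment recurred varied with its size. For ends of the 80 to 230 nt library at positions of the 130 to 430 nt library, the ratio to the local mean was 2.91 at 132 nt, 2.37 at 137 nt, 2.90 at 142 nt, 2.48 at 148 nt, 2.92 at 153 nt and 2.47 at 158 nt. In the opposite direction it was 3.17 at 132 nt, 2.38 at 136 nt, 3.0 at 142 nt, 2.44 at 148 nt, 2.99 at 153 nt and 2.49 at 158 nt. Whether the single-end 140 to 240 nt library came from the same oocytes is not given in the sources used here. It gave maxima for the 130 to 430 nt fragments at 132, 141 and 153 nt (2.60, 2.52 and 2.75). Its minima lay at 137, 147 and 158 nt (2.15, 2.26 and 2.35). Beyond 170 nt the oscillation was small, with 2.23 at 178 nt, 2.22 at 188 nt and 2.18 at 199 nt for 130 to 430 nt fragments at ends of the 80 to 230 nt library. For 80 to 230 nt fragments the ratio rose again at sizes with few fragments, to 2.84 at 199 nt and 3.73 at 204 nt. The maxima below 160 nt, near 132, 142 and 153 nt, were also maxima of the spans between different molecules. They lay within 1 nt of the count maxima at 132 and 141 nt in the 80 to 230 nt library, and 2 to 3 nt below those at 134 and 145 nt in the other library and at 155 nt in the first. MNase ends varied with size at similar sizes, but at a lower level. For 130 to 430 nt fragments their ratio had maxima at 133, 145 and 153 nt (1.05, 1.09 and 1.13). Minima lay at 138, 149 and 159 nt (0.907, 0.968 and 0.983), and the ratio was 0.759 at 199 nt. For 80 to 230 nt fragments the maxima were at 133, 144 and 153 nt (1.06, 1.11 and 1.14).

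The 2 libraries placed fragments of the same size alike relative to MNase ends. MNase ends were counted by their distance from the ends of a size class, taken as positive into the fragment and smoothed over 5 nt. For fragments of 143 to 147 nt they were most frequent at -3 nt, 1.26 times the mean in both libraries, and for fragments of 153 to 157 nt at 8 nt, with 1.30 in the 80 to 230 nt library, against 1.29 in the 130 to 430 nt library. For 176 to 180 nt the highest position was 5 nt in the first library and 6 nt in the second, with 1.25 and 1.24. Smoothed over 21 nt, the maximum lay at 1 nt for the 2 shorter classes, and at 11 and 12 nt for 176 to 180 nt.

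In the longer classes MNase ends were less frequent at the fragment end than in the shorter classes. The level at the end is given first for that single position, without smoothing. In the 130 to 430 nt library, MNase ends at the fragment end itself were 1.17 times the mean for 143 to 147 nt, 1.18 for 153 to 157 nt, 0.915 for 176 to 180 nt, 0.855 for 186 to 190 nt and 0.828 for 197 to 201 nt. In the 80 to 230 nt library these values were 1.17, 1.20, 0.953, 0.843 and 0.789. Smoothing over 5 nt put the longer classes slightly above the mean at this position, still below the shorter ones. Ends of 130 to 430 nt fragments then gave 1.21, 1.23, 1.07, 1.03 and 1.01 for the classes in order. Those of 80 to 230 nt fragments gave 1.20, 1.25, 1.10, 1.03 and 1.02. Values below the mean thus belong to the single position only. For the longest classes the position of the maximum rested in part on a few windows. In the 80 to 230 nt library it lay at -30 nt (1.77) for 186 to 190 nt and at -25 nt (2.98) for 197 to 201 nt, and without windows over 5 times the median at 5 nt (1.25) and -3 nt (1.31). In the 130 to 430 nt library it lay at 6 nt for 186 to 190 nt with and without those windows (1.20 in both), whereas for 197 to 201 nt it lay at -25 nt (1.25) with them and at 6 nt (1.19) without them.

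**Figure D4:**
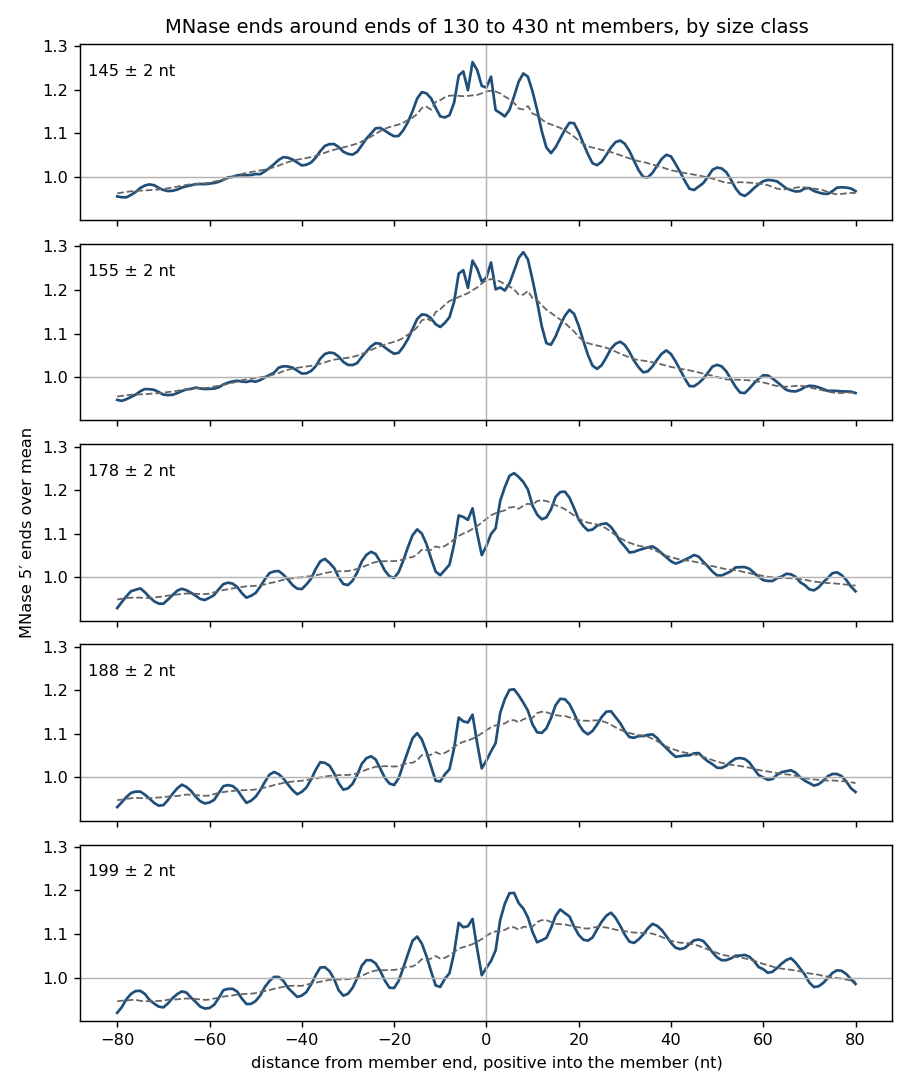
MNase 5′ ends over their mean are plotted against the distance in nt from the ends of 130 to 430 nt library fragments, positive into the fragment, in 5 panels by size class (145, 155, 178, 188 and 199 nt, each within 2 nt), without windows over 5 times the median. The solid line is a mean over 5 nt and the dashed line a mean over 21 nt, whose maximum lies at 1 nt for the 2 shorter classes and at 12 to 13 nt for the 3 longer ones.

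Coverage in windows of 1 kb was similar in the 2 libraries at the scale of the genome. A window held a median of 32 kept fragments of the 80 to 230 nt library, with a range from the 5th to the 95th percentile of 13 to 54, and 137 of the 130 to 430 nt library, with a range of 60 to 206. Spearman's rho over 99072 windows was 0.794, from 0.718 on chromosome X to 0.825 on chromosome III. Neighbouring windows are not independent, so rho is given as a description. It was 0.927 in windows of 10 kb and 0.709 when the deeper library was thinned to the depth of the other. With the single-end 140 to 240 nt library rho was 0.639 for the 80 to 230 nt fragments and 0.711 for the 130 to 430 nt fragments, and with MNase core DNA 0.651 and 0.721.

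After scaling for a depth that differed 4.13-fold, few windows differed between the libraries. Of 96606 windows with at least 50 kept fragments in both libraries together, 515 (0.533%) were over 2-fold higher in the 130 to 430 nt library and 135 (0.14%) over 2-fold higher in the 80 to 230 nt library. The log2 ratio had a standard deviation of 0.32, where counting error alone gives a median of 0.28 per window. Windows higher in the 130 to 430 nt library held a median of 10 fragments of the 80 to 230 nt library, fewer than the 32 of all windows. With a minimum of 100 fragments the counts were 298 and 44, without a share, because the number of windows at that minimum was not recorded. At the minimum of 50 every chromosome held such windows, in unequal numbers. In the first direction they ran from 60 of 17324 windows on X to 120 of 16749 on IV. In the second direction they ran from 16 of 13286 on III to 27 of 16749 on IV.

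A single window exceeded all others in both libraries. Chromosome V from 17118001 to 17119000 held 2858 fragments of the 80 to 230 nt library, 89.3 times the median, and 11893 of the 130 to 430 nt library, 86.8 times the median. In it 1067 distinct fragments were present in both libraries. The single-end 140 to 240 nt library held 0.186 times its median there and the MNase library 0.12 times. The second window, chromosome V from 17115001 to 17116000, lies 2 kb away and held 788 and 3106 fragments, 24.6 and 22.7 times the medians, beside 0.439 and 0.48 times in the single-end and MNase libraries. The third in the 130 to 430 nt library, chromosome II from 2004001 to 2005000, held 296 and 1234 fragments, 9.25 and 9.01 times the medians, and the single-end and MNase lists had 0 tags in it. These 3 windows were thus high in both paired-end libraries alike and low in both single-end libraries.

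The third window of the 80 to 230 nt library differed between the paired-end libraries. Chromosome I from 3171001 to 3172000 held 478 fragments in it, 14.9 times the median, and 688 in the 130 to 430 nt library, 5.02 times, a log2 ratio of -1.52. The single-end 140 to 240 nt and MNase libraries were high there, at 28.1 and 16.3 times their medians. In all, 15 of 100258 windows exceeded 5 times the median in either library, and they held 0.163% and 0.128% of the distinct fragments.

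In the windows with the most unequal coverage only 1 library held few fragments. Chromosome IV from 1184001 to 1185000 held 5 fragments in the 80 to 230 nt library, against 130 in the 130 to 430 nt library, a log2 ratio of 2.54, and chromosome I from 11477001 to 11478000 held 3 and 78. Chromosome I from 13877001 to 13878000 held 4 and 98. In the opposite direction chromosome X from 15809001 to 15810000 held 75 fragments (37 distinct) in the 80 to 230 nt library, against 0 in the 130 to 430 nt library, and the single-end and MNase lists had none. Depth alone would give 310 fragments in the 130 to 430 nt library, and against a floor of 3 counts per library the window was at least 103-fold higher in the 80 to 230 nt library by copies and at least 47.0-fold higher by distinct fragments. Chromosome V from 16708001 to 16709000 held 53 fragments and 1, and chromosome III from 7446001 to 7447000 held 67 and 4.

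The chromosomes held nearly equal shares of both libraries. The depth-scaled ratio of the 130 to 430 nt library to the 80 to 230 nt library ran from 0.995 on II to 1.007 on IV. Chromosome X had the most kept fragments per Mb in both, 34881 and 144495, and chromosome IV the fewest, 30639 and 127510. On every chromosome the middle of 3 equal parts held more fragments per Mb than either outer part. On chromosome I these densities were 34373 in the middle against 29428 and 30719 in the 80 to 230 nt library, and 141943 against 121158 and 126556 in the 130 to 430 nt library. On chromosome X the middle part held 36505 per Mb against 33576 and 34563 in the first library.

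**Figure D5:**
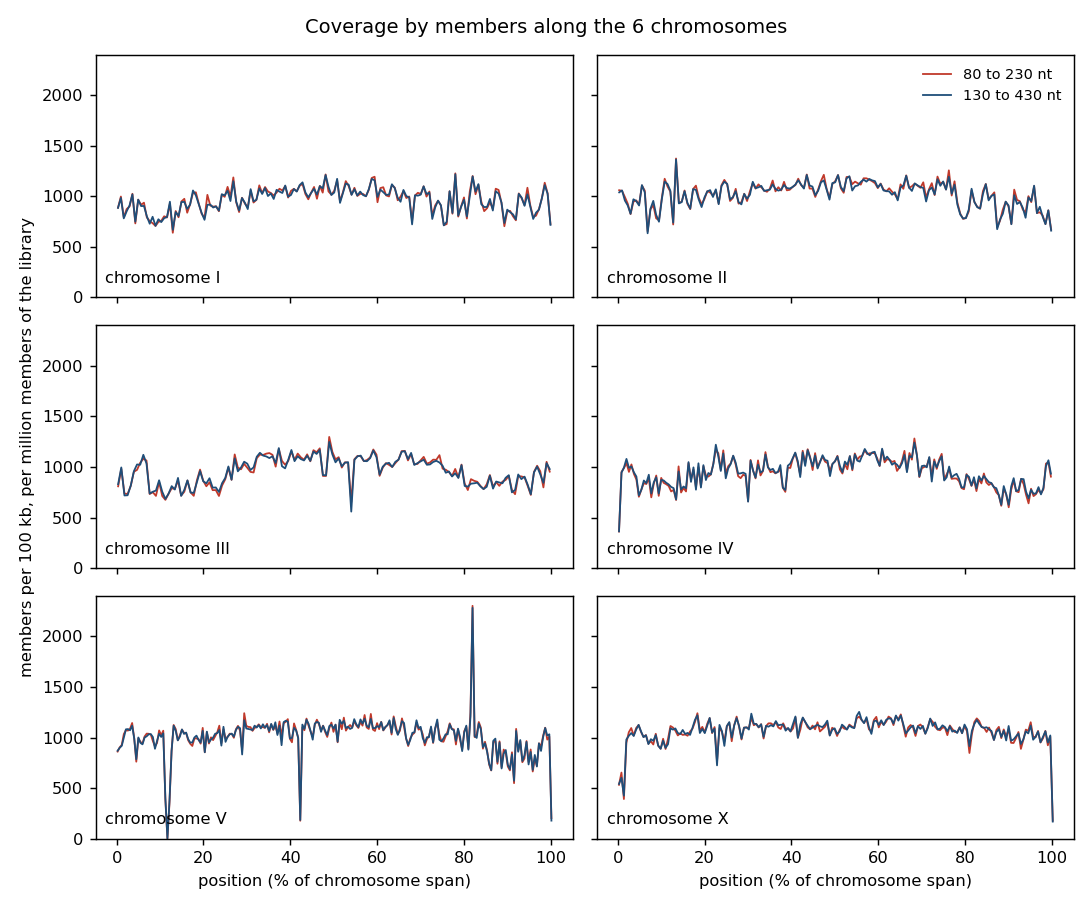
Kept fragments per 100 kb, scaled to 1000000 kept fragments of the library, are plotted for the 80 to 230 nt (red) and 130 to 430 nt (blue) libraries along each of the 6 chromosomes, with position as a percent of the chromosome span. The 2 lines overlap along most of their length, and the spike on chromosome V holds the window with 2858 and 11893 fragments. The last bin of each chromosome is shorter than 100 kb and not scaled for its length, which lowers the last points of V and X. The other deep dips are stretches where few or no fragments were listed in either library.

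Fragment size varied little along the chromosomes. Fragments of 170 nt or more were 14% of the kept fragments in the 80 to 230 nt library, against 29.6% in the 130 to 430 nt library. By chromosome the share ran from 13.8% on III to 14.2% on X in the first library and from 29.3% on III to 29.8% on X in the second. Both thus had their lowest and highest share on the same chromosomes, but other chromosomes were within counting error of these. In both libraries the intervals of I and II overlapped that of III, and the interval of IV overlapped that of X. In the first library the interval of V also overlapped that of X. The intervals of chromosomes III and X did not overlap in either library (13.7 to 13.9% and 14.1 to 14.3%, 29.2 to 29.4% and 29.8 to 29.9%). The most frequent size was 132 nt on all 6 chromosomes in the first library and 145 or 146 nt in the second. Over 1004 windows of 100 kb, chosen as a scale after the data were seen, rho between the libraries for this share was 0.243, from 0.117 on II to 0.280 on IV, and single windows ranged from 11.6 to 26.7% and from 27.0 to 33.9%.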

How the data were processed

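DNA of fer-1(b232) oocytes was isolated by the authors after direct lysis, size-selected on agarose gels, phosphorylated, blunted, ligated to linkers, amplified below saturation and sequenced, and both reads of a pair had to match perfectly at a unique position. The submitters' processing notes name Bowtie 0.12.7. Neither the build of the genome nor any step against PCR copies is given in the sources used here. The deposited lists hold a whole-number count of copies for each fragment or single-end position, without normalization. A display score in the authors' single-end lists was not used.

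Fragment size was the distance between the deposited ends. Sizes, shared fragments, coincidence numbers (products of counts), windows of 1 kb of fragment midpoints and depth-scaled ratios (pseudocount 0.5, at least 50 fragments) were computed with SciPy 1.17.1, NumPy 2.4.6 and pandas 2.3.3 under Python 3.11.15, plotted with Matplotlib 3.10.9, and tested on simulated data. Periodic shares used periods of 9.8 to 10.7 nt over a quadratic baseline, and size periods 9.5 to 11.5 nt. The local mean and other offsets served as levels for comparison. Groups are the labels' size selections, with 1 library each.

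Named regions are the 3 windows with the most fragments in each library and the 3 with the highest and lowest ratio, and named sizes are the local maxima. The fragments, classes and measures were chosen with earlier results of these data known. The alternatives were distinct fragments, no high windows, thinning, other smooths, periods and minimums, and windows of 10 kb. The other 4 endo-cleaved libraries were not analysed here beyond their totals.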

Additional observations from a re-analysis of the deposited data

How the results depend on the processing

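Each condition is 1 library, so intervals and ranges over chromosomes leave out the spread between oocyte preparations. No paired analysis was possible because the libraries share no replicate beyond number 1 and no result comes from a test. Of 102 recomputed values 78 stayed within the counting interval, the range over chromosomes or 1.5 times the count, and 24 moved. A size maximum that was no longer found under a setting, as that at 134 nt, is not among these values. Division by the smooth, chosen after seeing the data, raised the number of size maxima below the sparse tail to 7 for the 80 to 230 nt library, against 8 for the 130 to 430 nt library, and placed 2 maxima of the first at 144 and 157 nt. The size period was 11.19 and 10.83 nt with equal weights, and, under settings chosen after seeing the data, 12.11 nt with periods up to 13 nt for the 80 to 230 nt library, against 11.38 nt with sizes up to 200 nt in the 130 to 430 nt library. With the 130 to 430 nt library thinned, exact shared fragments were 0.578% of the 80 to 230 nt fragments and rho was 0.709, as fewer fragments enter. Without high windows the shared fragments were 2.16% and 0.566%. With each fragment counted once, the share of the spans was 3.69%, the ratio at distance 0 was 2.56, the equal-size ratio was 3.11 and fragments of 170 nt or more were 30.04% of the 130 to 430 nt library. Measured as peaks above troughs, a different scale, the shares at end distances were 18.7, 7.58, 2.95, 1.69 and 1.16%. Windows of 10 kb gave a rho of 0.927, and a minimum of 100 fragments left 298 and 44 windows over 2-fold. The cause was not tested where none is given. The setting without the 1-kb window of most fragments was also chosen after seeing the data. Depth limits the 80 to 230 nt library beyond 200 nt and single windows, at a median of 32 fragments.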
